A study of Mus musculus with 10 samples.

Results

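The milk protein genes and the prolactin receptor gene *Prlr* were followed by cell class, barcode set and genotype in single-cell data of inguinal white adipose tissue (iWAT). The genes were chosen by symbol: the caseins *Csn1s1*, *Csn1s2a*, *Csn2* and *Csn3*, the whey acidic protein gene *Wap*, the alpha-lactalbumin gene *Lalba*, *Wfdc18*, *Lcn2* and *Prlr*. Of these 9 symbols, 7 had a row among the 14623 genes of the count table, and *Wap* and *Lalba* are not analysed here. The stromal vascular fraction (SVF), meaning the non-adipocyte cells released by digestion of fat, came from a lean *Bbs8*-/- mouse (Bbs8 KO) and a lean *Bbs8*+/+ mouse (Bbs8 WT), both 7 weeks old. BBS8 belongs to the BBSome, a complex that moves membrane proteins in and out of primary cilia, and the gene was absent from the whole body of the mutant. With 1 mouse per genotype, no test between genotypes was possible, so no p-value is given, and genotype, mouse and cell preparation cannot be told apart.

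Cells were profiled by Seq-Well S3, in which single cells and barcoded beads share wells and each captured RNA molecule is counted once through its unique molecular identifier (UMI). UMIs mark the 3′ end of a molecule and do not scale with gene length; levels are a gene's UMIs per 1000000 UMIs of the cells named (CPM). The table held 10914 cells in 10 barcode sets, 5 per genotype, named by the codes KO5, KO6, WT3 and WT4 with a part number; the sources used here do not explain the numbers. Bbs8 KO had 8985 cells with 3144195 UMIs and Bbs8 WT had 1929 cells with 715989 UMIs. Bbs8 KO sets had 1635 to 2005 cells each, Bbs8 WT sets only 196 to 768. The targeted gene, *Ttc8* (*Bbs8*), had 0 UMIs in Bbs8 KO, and Bbs8 WT had 5. The labels give no sex; *Xist* was counted in all 10 sets, and no UMI of the Y-linked *Uty*, *Kdm5d*, *Eif2s3y* or *Ddx3y* was (0 UMIs each). Of 10847 barcodes, 36 occurred in more than 1 set, and the 103 cells that carried them held 18 casein UMIs.

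Caseins are the main proteins of milk and are made by the secretory luminal cells of the mammary epithelium. Prolactin binds PRLR on these cells and acts through JAK2 and STAT5, which binds casein promoters, and casein transcripts rise in pregnancy and lactation. The inguinal fat pad of the mouse encloses a mammary gland, so a digest of it can carry ducts beside the stromal, vascular and immune cells.

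The caseins lie together on chromosome 5 within 266 kb of each other (GRCm38). *Csn1s1* (ENSMUSG00000070702) spans chr5:87666208-87682578 on the plus strand, *Csn2* (ENSMUSG00000063157) chr5:87692624-87699630 on the minus strand, *Csn1s2a* (ENSMUSG00000061937) chr5:87774567-87788797 on the plus strand and *Csn3* (ENSMUSG00000001622) chr5:87925579-87932665 on the plus strand. The other members are on other chromosomes: *Wfdc18* (ENSMUSG00000000983) at chr11:83709015-83711348, *Lcn2* (ENSMUSG00000026822) at chr2:32384633-32388252 and *Prlr* (ENSMUSG00000005268) at chr15:10177238-10349180. The promoters of 3 caseins and of *Wfdc18* are shown as examples of genes counted together in the same cells; that of *Csn3* is not shown. Each is the 250 bases before a RefSeq transcript start (GRCm38.p6), 5′ to 3′ on the strand of the gene, and capitals mark a match to TTCNNNGAA, the letters of the STAT5 element. Windows were chr5:87665958-87666207 for *Csn1s1*, chr5:87699426-87699675 for *Csn2*, chr5:87774200-87774449 for *Csn1s2a* and chr11:83708754-83709003 for *Wfdc18*.
Csn1s1: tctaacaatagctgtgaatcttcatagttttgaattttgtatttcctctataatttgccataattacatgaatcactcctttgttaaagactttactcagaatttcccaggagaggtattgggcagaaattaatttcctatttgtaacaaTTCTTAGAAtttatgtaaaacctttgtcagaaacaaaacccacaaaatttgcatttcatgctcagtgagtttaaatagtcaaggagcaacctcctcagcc
Csn2: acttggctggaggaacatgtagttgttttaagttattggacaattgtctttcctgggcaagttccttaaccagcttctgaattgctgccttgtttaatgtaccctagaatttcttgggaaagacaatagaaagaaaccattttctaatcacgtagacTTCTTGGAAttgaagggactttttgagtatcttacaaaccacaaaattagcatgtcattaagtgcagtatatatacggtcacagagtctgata
Csn1s2a: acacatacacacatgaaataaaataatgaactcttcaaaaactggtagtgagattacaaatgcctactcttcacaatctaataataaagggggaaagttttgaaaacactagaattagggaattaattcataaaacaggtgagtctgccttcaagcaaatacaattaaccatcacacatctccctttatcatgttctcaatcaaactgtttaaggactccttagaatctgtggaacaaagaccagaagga
Wfdc18: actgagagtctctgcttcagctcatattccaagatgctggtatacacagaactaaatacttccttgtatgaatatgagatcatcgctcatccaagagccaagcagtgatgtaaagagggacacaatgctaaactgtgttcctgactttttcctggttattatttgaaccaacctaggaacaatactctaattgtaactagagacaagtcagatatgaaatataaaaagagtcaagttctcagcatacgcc

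The match began 100 bases before the start of *Csn1s1* (TTCTTAGAA) and 93 bases before that of *Csn2* (TTCTTGGAA). The windows of *Csn1s2a*, *Wfdc18* and *Lcn2* held no match, and among the 3 *Prlr* starts 1 held a match, 110 bases before it (TTCTAGGAA). TTCNNNGAA reads the same on both strands and occurred in 2306 of 32851 promoter windows of this length (7.02%). A match of these letters is a description and not a bound site.

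Cells were clustered without the members, and a single cluster of 304 cells was led by epithelial genes; it is called the epithelial-like class. Of the 12 epithelial markers in the list, 11 had a row, and all 11 were higher in this cluster than in the other cells, among them *Epcam* and the keratins *Krt8*, *Krt18* and *Krt19*. The class held 187 of 8985 Bbs8 KO cells (2.08%, 95% Clopper-Pearson interval 1.80 to 2.40) and 117 of 1929 Bbs8 WT cells (6.07%, 5.04 to 7.22). All intervals here cover counting error only. The Bbs8 KO part of the class moved with the clustering. Of its 187 cells, 89 were also in the epithelial class found without integration and 78 in that found with the members kept. Of the 117 Bbs8 WT cells, 107 and 103 were. By set the share of the epithelial-like class ran from 0.856 to 3.35% among Bbs8 KO sets and from 3.13 to 11.2% among Bbs8 WT sets, so the ranges overlapped. Bbs8 KO cells of the class were shallower, with a median of 215 UMIs against 323. A UMI of an epithelial marker was found in 83 of the 187 Bbs8 KO cells and in 99 of the 117 Bbs8 WT cells. Single markers went both ways: of the 11, 3 had a log2 ratio of Bbs8 KO over Bbs8 WT above 1 and 5 below -1. The median was -0.67 (pseudocount of 5 CPM). Over all genes with a UMI in the class the shares above 1 and below -1 were 40.1% and 21.4%. *Krt19* had 146 UMIs in Bbs8 KO against 58 in Bbs8 WT, *Epcam* 34 and 52, and *Cldn3* 4 and 17. The summed markers reached 6758 CPM in the mutant class against 6076 in the wild type, a ratio of 1.11 (0.949 to 1.30). This pooled value rested on KO6: a marker was counted in 66 of 98 KO6 cells (67.3%) and in 17 of 89 KO5 cells (19.1%), at 9574 and 2809 CPM, and 21 of the 38 marker UMIs of KO5_p3 were in 1 cell. In WT3 a marker was counted in 64 of 72 cells and in WT4 in 35 of 45. Markers of other types were also counted in the class: the stromal list gave 7689 CPM for Bbs8 KO against 4127 for Bbs8 WT, the T cell list 1685 and 187, the B cell list 1685 and 290, and the pericyte list 317 and 2634. The part of these in the results below was not tested.

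The caseins were detected in Bbs8 WT and nowhere in Bbs8 KO. Over the whole table they gave 306 UMIs, all from Bbs8 WT cells, and 0 among the 3144195 UMIs of Bbs8 KO. In the epithelial-like class of Bbs8 WT the 4 caseins summed to 242 UMIs, or 5019 CPM (exact Poisson 95% interval 4406 to 5693). They were found in 68 of 117 cells there (58.1%), of which 39 held at least 2 different caseins.

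*Csn2*, which encodes beta-casein, had the highest count, with 79 UMIs or 1638 CPM (1297 to 2042) in the epithelial-like class of Bbs8 WT. By set, in the order WT3_p1, WT3_p2, WT3_p3, WT4_p2 and WT4_p3, *Csn2* was at 2809, 1307, 1356, 1563 and 1783 CPM. *Csn1s2a*, an alpha-S2-casein gene, had 62 UMIs or 1286 CPM (986 to 1648) and stood at 3651, 996, 834, 868 and 510 in these sets. A single cell held 19 of these 62 UMIs, and WT3_p1, the set of that cell, was far above the other sets for this gene (1225 without the cell). *Csn3*, encoding the kappa-casein that stabilises milk micelles, had 57 UMIs or 1182 CPM (895 to 1532) and values of 2106, 809, 939, 1563 and 510. *Csn1s1*, for alpha-S1-casein, had 44 UMIs or 913 CPM (663 to 1225) and values of 1685, 809, 730, 608 and 1274. Neighbours in the order *Csn2*, *Csn1s2a*, *Csn3* and *Csn1s1* had overlapping intervals. Every casein was counted in every Bbs8 WT set.

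**Figure D1:**
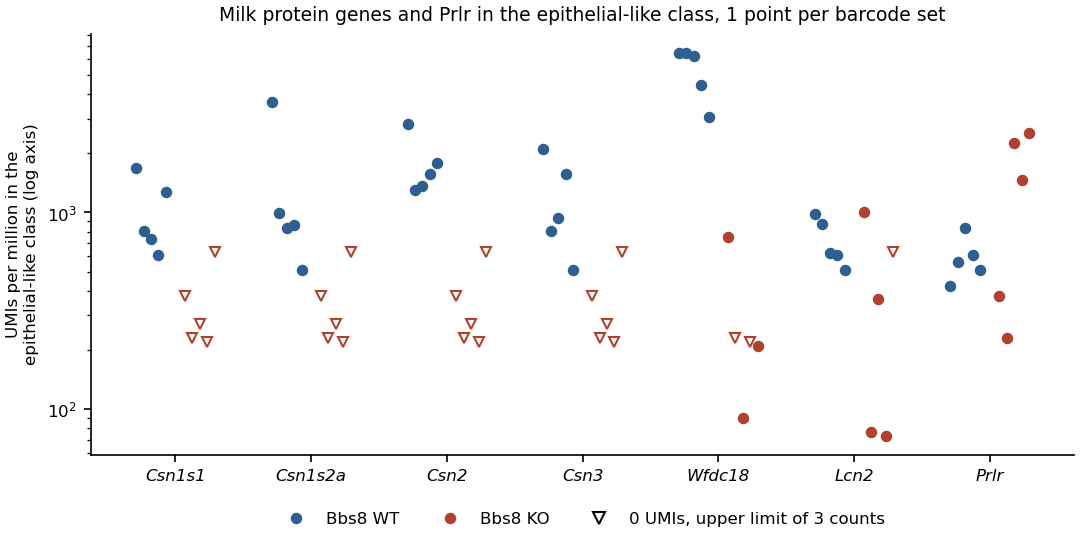
Level of each gene in the epithelial-like class, in CPM (UMIs per 1000000) on a log axis, for each of the 5 barcode sets of Bbs8 WT and of Bbs8 KO; points are sets of 1 mouse per genotype, and open triangles mark sets with 0 UMIs, drawn at the limit of 3 counts. The 4 caseins sit between 510 and 3651 in the Bbs8 WT sets and are triangles in all Bbs8 KO sets, and *Prlr* reaches its highest values in the KO6 sets.

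In the epithelial-like class of Bbs8 KO each casein had 0 of 50459 UMIs, which allows up to 59.5 CPM. At the level of Bbs8 WT, 253 casein UMIs would have been counted there. Against a floor of 3 UMIs over the class, the casein sum was at least 84.4-fold lower in Bbs8 KO, and the bounds for single genes were 15.3-fold for *Csn1s1*, 21.6-fold for *Csn1s2a*, 27.6-fold for *Csn2* and 19.9-fold for *Csn3*. The bound for the sum was 47.5-fold in cells of the class with an epithelial marker UMI, 48.0-fold in cells called by at least 2 marker UMIs and 35.3-fold in cells with at least 200 genes. The KO6 cells alone, with most of the markers, had 0 casein UMIs of 29455, which allows up to 102 CPM. The count was 0 in each of the 5 Bbs8 KO sets, whose limits were 220 to 632 CPM, and the lowest Bbs8 WT set was at 3859. Thinning each cell to 200 UMIs, which left out 15 Bbs8 WT and 79 Bbs8 KO cells of the class, gave a casein in 43 of 102 Bbs8 WT cells (42.2%, 32.4 to 52.3) and in 0 of 108 Bbs8 KO cells, which allows a share of up to 2.78% of cells with a casein UMI at this depth and sets no limit on cells that express one. All cells had the same depth in this last comparison. Over all cells the sum was at least 448-fold lower in Bbs8 KO, a value that moves with the share of epithelial-like cells as well as with their level.

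*Wfdc18*, a gene of the family of small secreted proteins to which whey acidic protein belongs, had the highest count of all members. It gave 273 UMIs in the epithelial-like class of Bbs8 WT, or 5662 CPM (5010 to 6375), in 80 of 117 cells. Its levels were 6460, 6474, 6257, 4427 and 3057 CPM in WT3_p1, WT3_p2, WT3_p3, WT4_p2 and WT4_p3. In Bbs8 KO the class had 8 UMIs, or 159 CPM (68.4 to 312), in 4 of 187 cells. The Bbs8 KO sets KO5_p2, KO5_p3, KO6_p1, KO6_p2 and KO6_p3 were at 753, 0, 90.4, 0 and 211, all below the lowest Bbs8 WT set. *Wfdc18* was therefore 35.7-fold lower in Bbs8 KO (17.9 to 83.6), and unlike the caseins it was present at a low level; 5 of its 8 UMIs came from 1 cell. With a pseudocount of 5 CPM the log2 ratio was -5.11, -6.77 without KO5_p2 and -4.43 in cells with at least 200 genes.

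*Lcn2*, encoding the iron-scavenging lipocalin-2 that is also made by inflamed tissue, differed less. It had 36 UMIs in the epithelial-like class of Bbs8 WT, or 747 CPM (523 to 1034), with 983, 871, 626, 608 and 510 in the sets in the order above. Bbs8 KO had 14 UMIs, or 277 CPM (152 to 466), with 1004, 76.7, 361, 73.3 and 0. KO5_p2 lay above every Bbs8 WT set, the other Bbs8 KO sets lay below, and so the genotypes overlapped. The level was 2.69-fold lower in Bbs8 KO (1.42 to 5.40), with 7 of the 14 UMIs in 1 cell. Its log2 ratio with the pseudocount was -1.41, -2.36 without KO5_p2 and -0.78 in cells with at least 200 genes.

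*Prlr* went the other way. Bbs8 WT had 29 UMIs in the epithelial-like class, or 601 CPM (403 to 864), and its sets were at 421, 560, 834, 608 and 510. Bbs8 KO had 63 UMIs, or 1249 CPM (959 to 1597), and its sets were at 377, 230, 2259, 1466 and 2527. The level was 2.08-fold higher in Bbs8 KO (1.32 to 3.34), yet the sets overlapped because the KO5 sets lay below every Bbs8 WT set and the KO6 sets above. KO6 held 57 UMIs and KO5 held 6, or 1935 and 286 CPM, a 6.77-fold difference within Bbs8 KO (2.93 to 19.2). The epithelial markers moved the same way in these sets, at 9574 CPM in KO6 and 2809 in KO5, and their part in the *Prlr* values was not tested. WT3 and WT4 were at 610 and 583. Over all cells *Prlr* was at 40.7 CPM in Bbs8 KO against 48.9 in Bbs8 WT, a ratio of 0.833 whose interval (0.569 to 1.25) spans equality. The share of cells with a *Prlr* UMI stood at 16.0% for Bbs8 KO against 15.4% for Bbs8 WT, and at 14.8% and 11.8% after thinning to 200 UMIs. In cells with at least 200 genes the log2 ratio of Bbs8 KO over Bbs8 WT, with the pseudocount, went from 1.05 to 1.80. The receptor was thus counted in epithelial-like cells of both genotypes, including the one without a casein UMI.

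**Figure D2:**
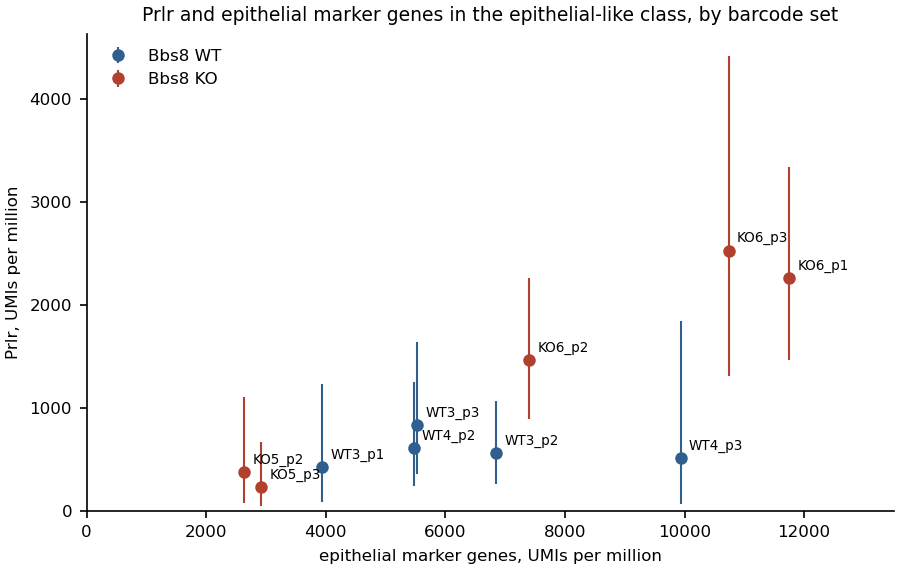
*Prlr* against the summed epithelial markers in the epithelial-like class, both in CPM, 1 point per barcode set, with exact Poisson 95% intervals for *Prlr* as lines. The KO5 sets sit at the lower left, with 377 and 230 for *Prlr*, and the KO6 sets are the highest for *Prlr*, from 1466 to 2527.

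Of all genes with at least 20 UMIs in the epithelial-like class, 17.9% had a log2 ratio of Bbs8 KO over Bbs8 WT below -1 (pseudocount of 5 CPM) and 15.0% had one above 1. Among the 7 members 6 were below and 1, *Prlr*, was above. All Bbs8 KO sets lay below all Bbs8 WT sets in this class for 5.46% of the genes and for 5 of the 7 members, the exceptions being *Lcn2* and *Prlr*. Over all cells the shares were 3.14% for a log2 ratio below -1 and 4.0% for sets that did not overlap, with 6 members in each. In the epithelial-like class the caseins, *Wfdc18* and *Lcn2* reached 20 UMIs through Bbs8 WT. Over all cells the caseins and *Wfdc18* did so too, so all of these member counts are descriptions.

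In Bbs8 WT all 7 members were higher in the epithelial-like class of this clustering than in the other cells. The ratio was 67.7-fold for *Csn1s1* (32.6 to 158), 57.2-fold for *Csn1s2a* (32.2 to 108), 42.1-fold for *Csn2* (26.7 to 68.3) and 56.4-fold for *Csn3* (31.0 to 110). It was 47.9-fold for *Wfdc18* (37.1 to 62.3), 41.5-fold for *Lcn2* (21.1 to 87.7) and 66.9-fold for *Prlr* (27.3 to 197). The intervals overlapped across all members. With the pseudocount, a log2 ratio above 1 was found for 14.6% of the genes with at least 20 UMIs in Bbs8 WT and 12.1% in Bbs8 KO, where *Lcn2* and *Prlr* met that minimum and both were above. In Bbs8 WT *Csn1s1*, *Csn1s2a*, *Csn3*, *Lcn2* and *Prlr* reached 20 UMIs only through the class, as did *Lcn2* in Bbs8 KO. These member counts are therefore descriptions. The class held 6.73% of the UMIs of Bbs8 WT and 79.1% of its casein UMIs (74.1 to 83.5). That share was 57.5% when epithelial cells were called by at least 2 marker UMIs without clusters, and 95.5% among cells with at least 200 genes. For the casein sum the log2 ratio with the pseudocount was 5.64, and it was 4.53 with cells called by marker UMIs, 5.14 with the class limited to cells with a marker UMI and 7.61 among cells with at least 200 genes.

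**Figure D3:**
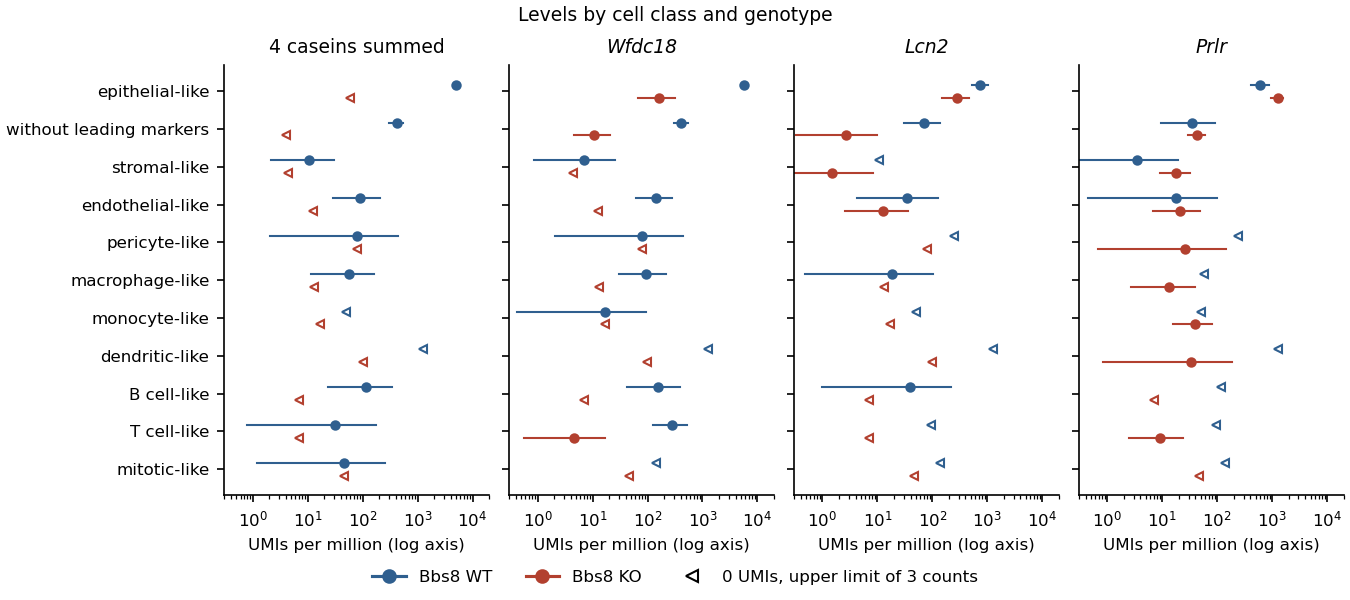
Level of the summed caseins, *Wfdc18*, *Lcn2* and *Prlr* in each cell class, in CPM on a log axis, with exact Poisson 95% intervals; open triangles mark classes with 0 UMIs at the limit of 3 counts. In Bbs8 WT each reaches its highest level in the epithelial-like class, and the next level of the caseins is 414 in the clusters without leading markers.

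The other Bbs8 WT cells held 64 casein UMIs, or 95.8 CPM (73.8 to 122), in 33 of 1812 cells, 52.4-fold below the epithelial-like class (39.6 to 70.1). Their levels by set were 113, 205, 84.2, 89.0 and 29.6 CPM. Casein UMIs were thus found in the other cells of every Bbs8 WT set, while the other cells of Bbs8 KO held 0, at least 98.8-fold lower (at least 13.6-fold among cells with at least 200 genes and 62.4-fold with clusters without integration). Most came from clusters that no marker list led: 47 UMIs in 24 of 422 cells, or 414 CPM. The other named classes together held 17 UMIs in 9 of 1376 cells, or 30.8 CPM (18 to 49.4). The 624 stromal-like cells held 3 UMIs, all in 1 cell, or 10.5 CPM (2.16 to 30.6). The remaining classes rested on 0 to 5 UMIs each. The endothelial-like class was at 88.0 CPM from 5 UMIs (28.6 to 205), the B cell-like class at 116 from 3 (23.9 to 339) and the macrophage-like class at 56.3 from 3 (11.6 to 164). The T cell-like, pericyte-like and mitotic-like classes had 1 UMI each, at 31.0, 80.7 and 46.7. The monocyte-like class had 0, which allows up to 50.3, and the 8 dendritic-like cells had 0, which allows up to 1259. The level in the clusters without leading markers (305 to 551) lay above the intervals of the stromal-like, endothelial-like, macrophage-like, T cell-like, mitotic-like and monocyte-like classes and overlapped those of the B cell-like, pericyte-like and dendritic-like classes.

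Outside the epithelial-like class the caseins and *Wfdc18* had shares close to those within it. Of their 515 UMIs inside the class of Bbs8 WT, *Wfdc18* made up 53.0% (48.6 to 57.4), *Csn2* 15.3%, *Csn1s2a* 12.0%, *Csn3* 11.1% and *Csn1s1* 8.54%. Of the 143 UMIs outside, the shares were 55.2% (46.7 to 63.6), 18.2%, 10.5%, 9.79% and 6.29%. The level outside was 1.91% of that inside for the casein sum (1.43 to 2.52) and 2.09% for *Wfdc18*, 2.41% for *Lcn2*, 1.49% for *Prlr* and 1.26% for the epithelial markers.

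**Figure D4:**
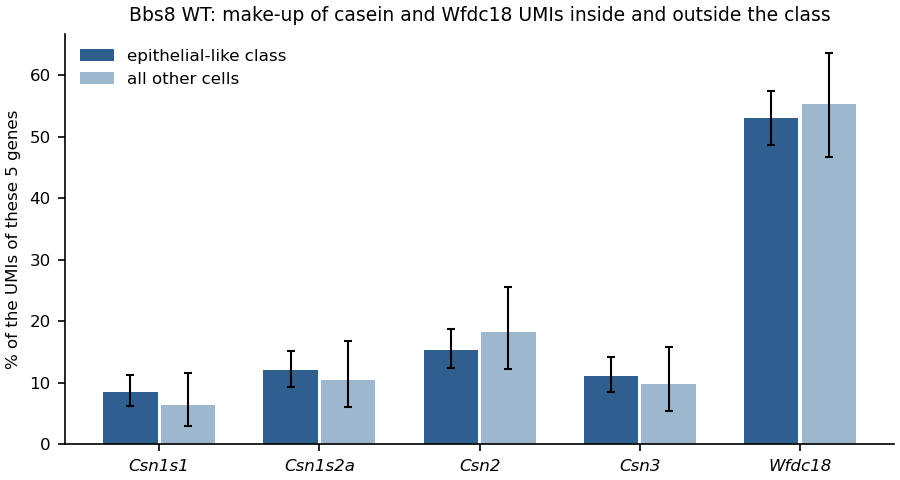
Share of each gene among the UMIs of the 4 caseins and *Wfdc18* in Bbs8 WT, inside and outside the epithelial-like class, in percent with exact 95% intervals. *Wfdc18* takes 53.0% inside and 55.2% outside, and the intervals of each gene overlap.

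The 33 other cells with a casein held at most 6 casein UMIs each and had a median of 250 UMIs, against 277 in the cells without. An epithelial marker was counted in 4 of them (12.1%, 3.40 to 28.2) and in 35 of the 1779 cells without a casein (1.97%, 1.37 to 2.73). *Wfdc18* was counted in 17 of the 33 and in 36 of the 1779. Casein and *Wfdc18* UMIs outside the class were therefore found in part in the same cells. The part of free RNA, and of epithelial cells placed outside the class, was not tested.

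*Wfdc18* in the other Bbs8 WT cells was at 118 CPM, with 414 in the clusters without leading markers, 279 in T cell-like, 155 in B cell-like and 141 in endothelial-like cells, and 6.97 in stromal-like cells. It was counted in 33 of 422 cells without leading markers, but in only 6 of 125 T cell-like and 3 of 85 B cell-like cells. In the other Bbs8 KO cells it had 10 UMIs. For *Prlr* in Bbs8 KO, 65 of 128 UMIs lay in 50 cells outside the epithelial-like class, which held 1.60% of all UMIs of that genotype. The level outside was 1.68% of that inside (1.17 to 2.42), against 1.49% in Bbs8 WT (0.507 to 3.66), so the intervals overlapped. The level of *Wfdc18* outside was 2.04% of that inside in Bbs8 KO (0.724 to 5.94). Of the 65 *Prlr* UMIs outside, 32 were in clusters without leading markers and 12 in stromal-like cells, 10 of them in a stromal-like cluster of 269 cells led by *Inmt*, *Igfbp3* and *Mgp*. In Bbs8 KO *Prlr* made up 15.6% (12.2 to 19.5) of the UMIs of *Prlr* and the epithelial markers inside the epithelial-like class and 32.7% (26.2 to 39.7) outside it. In Bbs8 WT these shares were 9.01% (6.11 to 12.7) and 10.5% (3.96 to 21.5).

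Within the epithelial-like class of Bbs8 WT the milk genes overlapped from cell to cell. A casein and *Wfdc18* were counted together in 54 of 117 cells, a casein and a luminal keratin (*Krt8*, *Krt18* or *Krt19*) in 49, a casein and a basal keratin (*Krt5*, *Krt14* or *Krt17*) in 14, and a casein and *Prlr* in 12. The cell with the most casein, in WT3_p1, held 42 casein and 18 *Wfdc18* UMIs among 1407, and the 5 cells with the most held 31.0% of the casein UMIs of the class. A casein was counted in 46 of 72 cells of WT3 and in 22 of 45 cells of WT4, in unequal amounts.

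Genes fixed in lists around milk and mammary lineages were read in the same class. They were compared without a pseudocount, over genes above 3 UMIs in a genotype, with 0 UMIs set to 3. Of all 3870 such genes, 22.0% had a log2 ratio of Bbs8 KO over Bbs8 WT above 1, 21.0% had one below -1, and the median was 0.16. A gene could pass through the genotype where it was high, so counts and medians of a list are descriptions. Of the other milk and secretory genes, 11 of 19 had a row and 7 passed that minimum; 5 were below -1, 1 was above 1, and the median was -2.07. *Mfge8*, for the milk fat globule protein lactadherin, had 15 UMIs in Bbs8 KO against 116 in Bbs8 WT, 8.09-fold lower (4.71 to 14.9). *Trf*, encoding the iron carrier transferrin, had 4 and 78, 20.4-fold lower (7.66 to 76.8). *Muc15*, a membrane mucin, had 0 and 21, at least 7.33-fold lower, and the lipid droplet gene *Plin2* had 8 and 19. *Wfdc2* was the gene above 1, with 10 UMIs in Bbs8 KO against 0 in Bbs8 WT, at least 3.19-fold higher.

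In the list of prolactin and Stat5 signalling, 8 of 16 genes passed the minimum, 2 were above 1, 1 was below -1, and the median was 0.10. *Stat5a* had 3 UMIs in Bbs8 KO against 5 in Bbs8 WT, *Stat5b* 5 and 3, *Nfib* 12 and 16 and *Ptpn11* 10 and 5, counts too low to show a difference. *Nr3c1*, the glucocorticoid receptor gene, had 7 and 3. *Elf5*, a transcription factor of the secretory luminal lineage, had 0 and 14, at least 4.88-fold lower in Bbs8 KO. *Areg*, an EGF receptor ligand of hormone-sensing luminal cells, had 35 and 5, 6.69-fold higher (2.61 to 21.9). The list had no common direction.

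Of the 5 hormone-sensing luminal markers, 3 passed the minimum and were above 1: *Areg*, *Cited1* with 29 and 4 UMIs (6.93-fold higher, 2.43 to 27.1) and *Foxa1* with 7 and 0. *Areg* and *Cited1* too were highest in KO6, where *Areg* was at 985 CPM and *Cited1* at 849, against 286 and 190 in KO5. The Bbs8 WT values were 153 for *Areg* in WT3 and 0 in WT4, which allows up to 194, and 61.0 and 130 for *Cited1*. Of the 4 luminal progenitor markers, 3 passed and were below -1: *Kit* with 3 and 11 UMIs, *Cd14* with 6 and 14, and *Elf5*. *Krt19* was 2.41-fold higher in Bbs8 KO (1.76 to 3.32), with 146 and 58 UMIs, yet KO6 carried this, with 3972 CPM against 1381 in KO5, 1129 in WT3 and 1360 in WT4. The luminal keratins *Krt18* (90 and 72) and *Krt8* (47 and 50) had ratios of 1.19 and 0.898. Basal keratins were counted in 0 of 187 Bbs8 KO cells and 20 of 117 Bbs8 WT cells. *Krt14* had 0 and 21 UMIs, at least 7.33-fold lower, and *Krt5* had 0 and 6. Smooth muscle genes shared by basal epithelium and pericytes were lower too, with *Acta2* at 0 and 34 and *Myh11* at 6 and 49. The part of these lineage markers, and of the difference between KO5 and KO6, in the casein values was not tested; caseins were at 0 in both KO5 and KO6. Among the casein locus neighbours, 1 of 8 genes had a row, *Sult1e1*, with 0 UMIs in the class.

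**Figure D5:**
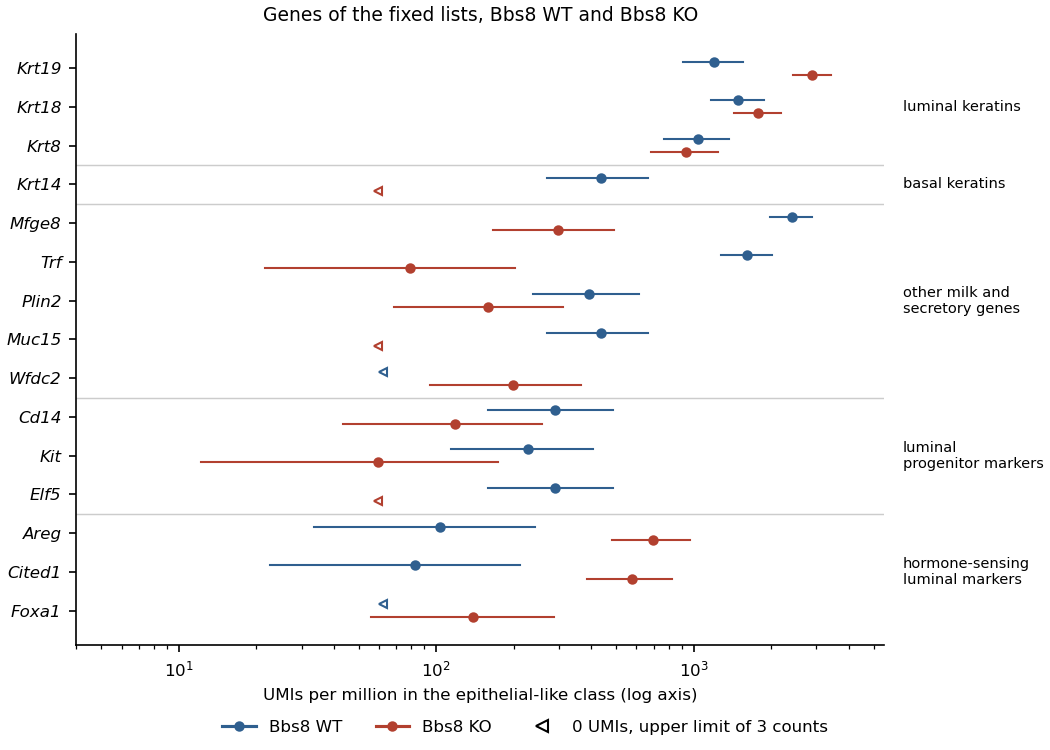
Level of genes of the fixed lists in the epithelial-like class, in CPM on a log axis, with exact Poisson 95% intervals; open triangles mark 0 UMIs at the limit of 3 counts, and up to 6 genes per list with at least 7 UMIs are drawn. *Mfge8*, *Trf*, *Krt14* and *Elf5* lie to the right in Bbs8 WT, and *Areg*, *Cited1* and *Krt19* in Bbs8 KO.

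The genes most like the summed caseins over the 10 named classes, among 10887 genes, were *Aqp5*, *Krt8*, *Chil1*, *Krt14* and *Cxadr*, with Pearson correlations of 0.986 to 0.988. The points share libraries, and any gene confined to the epithelial-like class scores high. In that class *Chil1* had 0 UMIs in Bbs8 KO against 22 in Bbs8 WT and *Cxadr* had 0 and 17, whereas *Aqp5*, a water channel of glandular epithelium, had 10 and 8.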

How the data were processed

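RNA of SVF cells was counted by Seq-Well S3. Per the methods, reads were demultiplexed with bcl2fastq2 2.20 and processed with dropSeqPipe (Drop-seq tools, STAR) against mm10 with the GENCODE vM16 annotation; cells with too few or too many genes or with over 20% mitochondrial reads were removed, and sequencing depth was evened by downsampling, before or after deposit not being stated. The authors deposited UMI counts per gene and cell, not normalized. These were used as deposited; 0 columns were left unused. Cells held 101 to 994 genes, and sets had a median of 228 to 300 UMIs per cell. Genotypes were read from the labels and the set codes. Set codes were not matched to the labelled samples one by one, and ranges over sets are technical.

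Sets were integrated and clustered with Seurat 5.3.0 (R 4.3.3) without the members, with 2000 features, 30 dimensions and resolution 0.8. A cluster of at least 60 cells was named from marker lists where the mean log2 fold over the list was above 1 and at least 3 markers were past 0.5, limits chosen after the clusters were seen. No doublet caller was run and doublets were kept. UMIs were summed per class and genotype and divided by the UMIs of the class. Intervals are 95% exact (Poisson, Clopper-Pearson, and binomial for ratios, scipy 1.17.1), and a count of 0 allows up to 3 counts. The ratio intervals were checked on simulated counts. TMM factors (edgeR 4.0.16) and size factors (DESeq2 1.42.0) served as alternative scalings, with no test. The members and lists were chosen with earlier results of these data known. Named genes were the members, up to 6 genes per list by UMIs in the class, and the 5 genes most like the caseins; *Acta2*, *Myh11* and the cluster led by *Inmt* were added after their values were seen. Alternatives were clustering settings, cell filters, sets left out, pseudocounts and scalings.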

Additional observations from a re-analysis of the deposited data

Results flagged for a closer look

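In 35 groups of 5 barcode sets (each member, the casein sum and the epithelial share, by genotype and cells), 4 had a set far from the others by Dixon's criterion. A rate of 1 in 20 would give 1.75. The groups overlap and some hold few UMIs, so that number is not a measure of chance here. The casein sum in the epithelial-like class of Bbs8 WT was 10251 CPM in WT3_p1 and 3859 to 4601 in the other sets. A single cell held 42 of the 73 casein UMIs of WT3_p1, and without it the set was at 5425. *Csn1s2a* in that class was at 3651 in WT3_p1 and 510 to 996 in the others, and the same cell held 19 of its 26 UMIs; without it WT3_p1 was at 1225. *Csn1s1* in the other Bbs8 WT cells was at 53.9 in WT3_p2 and 0 to 13.7 in the others. *Wfdc18* in the epithelial-like class of Bbs8 KO was at 753 in KO5_p2 and 0 to 211 in the others.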

How the results depend on the processing

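Over 31 results and 405 alternative values, 335 stayed within the counting interval, 70 moved beyond it, and 0 of the values whose interval excluded 0 changed sign. Some of the 335 could not move. Ratios over all cells do not depend on the clustering, and values from Bbs8 WT alone do not change when a Bbs8 KO set is left out. *Prlr* over all cells, whose interval spans 0, went from -0.24 to 0.04 without WT3_p2. The caseins had 0 UMIs over all Bbs8 KO cells, so no setting could give them a count there. Values below are log2 ratios with a pseudocount of 5 CPM, or log2 bounds for the caseins in Bbs8 KO. The casein sum in the epithelial-like class over the other cells was 6.80 over both genotypes. Bbs8 KO, without a casein UMI, raises this pooled value: it supplies 3093736 of 3761506 UMIs of the other cells and 50459 of 98678 of the class. The pooled value became 7.47 without integration, 7.25 with the members kept in the clustering, 6.0 for a class of cells with at least 2 marker UMIs, 8.55 for cells with at least 200 genes, 6.32 without the 5% of cells with the most UMIs and 6.06 with a pseudocount of 20. In Bbs8 WT alone the ratio was 5.64 and became 6.26 without integration, 4.53 with at least 2 marker UMIs, 7.61 with at least 200 genes and 5.14 with the class limited to cells with a marker UMI. The share of casein UMIs in the class, 79.1%, became 86.9% without integration, 84.3% with the members kept, 57.5% with at least 2 marker UMIs, 95.5% with at least 200 genes, 71.7% without the 5% of cells and 70.3% with a marker UMI. For Bbs8 KO over Bbs8 WT in the class, the bound of -6.40 became -6.16, -6.12, -5.59, -5.14, -6.12 and -5.57 in that order, and -6.17 without the cell with the most casein. In the other cells the bound of -6.63 became -5.96 without integration, -6.23 with the members kept, -7.64 with at least 2 marker UMIs, -3.77 with at least 200 genes and -7.13 with a marker UMI. Over all cells it was -8.81 and became -8.14 with at least 200 genes, -8.36 without the 5% of cells, -8.60 without the top cell and -8.97 with DESeq2 factors. The epithelial share, Bbs8 KO minus Bbs8 WT, was -3.98 points and became -5.51 without integration and -7.25 with at least 200 genes. The background of 15.0% higher became 27.7% with at least 3 UMIs and 40.1% with no minimum, and that of 5.46% became 0.733% and 0.462%. Leaving out each barcode set in turn gave -5.07 to -3.24 points for the epithelial share difference, 75.8 to 83.3% for the casein share, 6.55 to 7.09 and, in Bbs8 WT, 5.39 to 6.06 for the class over the other cells, and -6.55 to -5.94 (class), -6.86 to -6.26 (other cells) and -9.17 to -8.44 (all cells) for Bbs8 KO over Bbs8 WT. In the class, *Wfdc18* went from -5.11 to -6.77 without KO5_p2 and to -4.43 with at least 200 genes. *Lcn2* went from -1.41 to -2.36 without KO5_p2, to -2.44 without the 5% of cells and to -0.78 with at least 200 genes. *Prlr* went from 1.05 to 0.58 without the 5% of cells, to 0.68 without KO6_p1 and to 1.80 with at least 200 genes. The cause of these moves was not tested. The pseudocount does not enter the casein bounds. Depth limits what the 0 counts of Bbs8 KO and the list genes with few UMIs can show. No paired analysis was possible because each genotype was a single mouse and no set code gives a replicate number of the labels.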
